A study of Homo sapiens with 48 samples.

Results

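The comparison described here set 4 arrays of BEAS-2B cells treated with Ind/GSK for 2 h against 4 arrays of cells given vehicle for 2 h. The 8 arrays, of 48 in the series, were chosen by their titles, and the replicate numbers 1 to 4 in the titles match an Ind/GSK array to a vehicle array. Every probe set annotated with exactly 1 gene symbol was tested, 41091 of the 54675 on the Affymetrix U133 Plus 2.0 array, and these cover 19775 genes.

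BEAS-2B is an immortalised line of human bronchial epithelial cells, and it was the only cell source in the series. Ind/GSK is a combination of indacaterol, a long-acting agonist of the β2-adrenoceptor, and GSK256066, an inhibitor of phosphodiesterase 4, each at 10 nM. Vehicle cells received neither compound. Another treatment, GS-5759 at 10 nM, is a single molecule that carries both activities, and its 4 arrays at 2 h are used below for comparison. All groups shared the same culture history: 3 days in supplemented keratinocyte serum-free medium and then 24 h without the supplements. Treatments lasted 1, 2, 6 or 18 h, with 4 arrays for each treatment and time. The labels do not state that replicates were separate cultures, so p-values measure only the spread between these samples.

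The β2-adrenoceptor couples through the G protein Gs to adenylyl cyclase, which makes cyclic AMP (cAMP), and PDE4 enzymes break cAMP down. cAMP activates protein kinase A, which phosphorylates the transcription factor CREB. CREB binds the cAMP response element, a short palindromic DNA motif, and switches on early genes, several of which encode enzymes and repressors that limit the same pathway. Combinations of a β2-agonist and a PDE4 inhibitor have been studied as bronchodilator and anti-inflammatory treatment in airway disease.

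Values below are probe set signals on a linear scale. Changes are differences of group means of log2(signal + 16), Ind/GSK minus vehicle, with the standard error (SE) of a limma model over all 48 arrays, and they understate the change of dim genes. The model had no replicate term, so its SEs, p-values and calls do not use the matching of arrays. P-values are limma's, adjusted by Benjamini-Hochberg over all 41091 probe sets, and calls of a rise or fall required an adjusted p below 0.05. A gene is represented by its brightest probe set, the one with the highest mean over the 48 arrays. With 4 arrays in each group, the number of arrays limits the precision.

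Replicate 3 stood apart in both groups. KRT5, a keratin of basal and squamous epithelium, had a signal of 30475 in Ind/GSK replicate 3 and 32475 in vehicle replicate 3, against 138 to 277 in the other 6 arrays. KRT14, its keratin partner, had 319448 and 190711 in the same arrays, against 18.5 to 30.4 in the others. The replicate 3 arrays of all 12 groups of the series had high KRT5. The pan-epithelial keratins KRT8 and KRT18 were bright in all 8 arrays, at 4451 to 6458 and 7035 to 9041. KRT19 and EPCAM, which also define epithelium, were dim in replicates 1, 2 and 4 of both groups, KRT19 below 72 throughout. COL1A1, a collagen gene typical of fibroblasts, had signals of 6623 to 10984 in the 8 arrays. None of the measured markers of basal and squamous, ciliated and club, fibroblast, leukocyte or endothelial cells, or of epithelium in general, was called in either direction by limma. At an unadjusted p under 0.05 there were 1 ciliated or club cell, 1 fibroblast and 1 endothelial marker, against 4301 of all 41091 probe sets. With the replicate number as a block 1 general epithelial marker rose. The 8 measured basal and squamous markers summed to 5132 to 367442 in Ind/GSK arrays and 4934 to 240726 in vehicle arrays. The part of the keratin difference in the results was not tested, and counts without replicate 3 are given where they differ by over 1.5 times.

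Treatment with Ind/GSK for 2 h changed 640 probe sets, 1.56% of those tested, of which 361 rose and 279 fell. By the brightest probe set of each gene, 170 genes rose (0.86% of 19775) and 188 fell (0.951%). The rises were larger than the falls: 55 of the risen genes but only 2 of the fallen genes changed at least 2-fold, and the median change was 0.77 among risen and -0.33 among fallen genes. All 170 risen genes were higher in 4 of 4 matched pairs, and in 165 of them the 4 Ind/GSK arrays lay above the 4 vehicle arrays. Of the 188 fallen genes, 186 were lower in 4 of 4 pairs and 169 showed no overlap between the groups. Of all 19775 genes, 7.31% were higher and 18.7% lower in 4 of 4 pairs, and 1.62% lay higher and 4.8% lower without overlap. Called genes had to differ between the groups, so nothing is read from these counts. Over all genes, called or not, the median change was -0.05. A further 50 genes were called risen and 53 called fallen only through a dimmer probe set, and no gene was called in both directions. With the replicate number as a block, 2316 probe sets passed (1033 risen and 1283 fallen). With only the 8 arrays in the fit, 108 passed (94 risen and 14 fallen), and without Ind/GSK replicate 3, 354 passed. By gene, the block gave 483 risen and 837 fallen, and leaving replicate 3 out of all groups gave 199 risen and 82 fallen. Fits that left out 1 array gave 118 to 169 risen and 77 to 185 fallen genes, both lowest without Ind/GSK replicate 3.

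**Figure D1:**
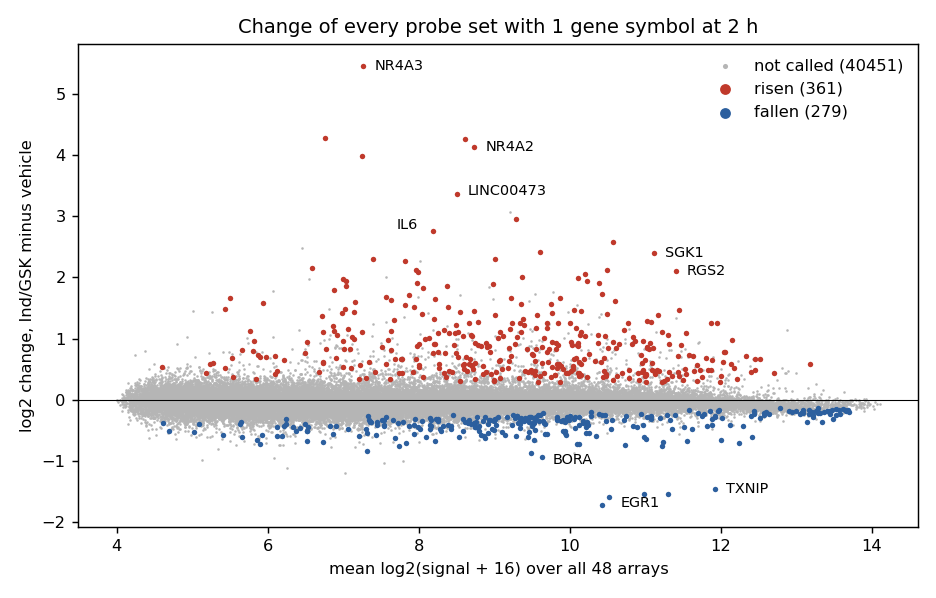
Change at 2 h (Ind/GSK minus vehicle, log2(signal + 16), vertical axis) against mean log2(signal + 16) over the 48 arrays (horizontal axis), 1 point for each of 41091 probe sets. Red points are the 361 risen and blue points the 279 fallen probe sets. The rises reach 5.46 for NR4A3, whereas the falls reach no lower than -1.72, a probe set of EGR1.

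The 3 NR4A orphan nuclear receptors, transcription factors encoded by immediate early genes of cAMP signalling, were among the largest rises. NR4A3 had signals of 2880, 1319, 2813 and 1041 in Ind/GSK replicates 1 to 4, against 41.2, 35.4, 14.8 and 18.1 in vehicle replicates 1 to 4. Its change of 5.46 ± 0.57 (43.9-fold, adjusted p = 5.21e-08) was the largest of all called genes, and replicates 1 and 3 were the higher Ind/GSK arrays. All 4 vehicle signals lay below 100.8, the 40th percentile of mean signal over probe sets, so the fold depends on the pseudocount: the change was 6.13 with a pseudocount of 1 and 4.39 with 64. NR4A2 had signals of 3630, 811, 4701 and 747 with Ind/GSK, against 85.7, 71.9, 113 and 81.9 with vehicle. Its rise of 4.14 ± 0.73 (17.6-fold, adjusted p = 0.000468) was present in every array, but Ind/GSK replicates 1 and 3 were over 4 times as high as replicates 2 and 4. NR4A1 had 727, 554, 887 and 394 in Ind/GSK arrays, against 192, 199, 111 and 121 in vehicle arrays, a smaller rise of 1.91 ± 0.33 (adjusted p = 0.000287). Both other NR4A2 probe sets rose with it, by 3.98 and 4.26. For NR4A3 the other probe sets had changes of 4.28, which was called, and 0.16, and for NR4A1 the others had changes of 2.12 and -0.11.

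LINC00473, a primate-specific long non-coding RNA known as a CREB target, ranked next after NR4A2. Its signals were 2207, 1765, 1291 and 1934 in Ind/GSK arrays and 216, 197, 88.8 and 160 in vehicle arrays. The rise of 3.36 ± 0.30 (10.3-fold, adjusted p = 1.43e-09) had a small SE for its size, and the groups were far apart in every replicate. CRISPLD2, a secreted protein gene also known as glucocorticoid-inducible in airway smooth muscle, had 3111, 2047, 2130 and 1740 with Ind/GSK, against 349, 318, 248 and 195 with vehicle. It rose by 2.95 ± 0.39 (adjusted p = 4.14e-06).

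SIK1, a salt-inducible kinase that is induced by CREB and restrains CREB's coactivators, had signals of 5793, 3474, 6130 and 3473 in Ind/GSK arrays, against 818, 754, 865 and 581 in vehicle arrays. It rose by 2.58 ± 0.38 (5.99-fold, adjusted p = 2.69e-05), and its second probe set by 2.15. An almost identical annotated copy of this gene exists, and whether these probe sets read it was not tested. IL6, encoding interleukin-6, had 1523, 503, 2027 and 353 with Ind/GSK, against 114, 146, 107 and 96.3 with vehicle. It rose by 2.75 ± 0.48 (6.74-fold, adjusted p = 0.000449), again with replicates 1 and 3 well above replicates 2 and 4 among the Ind/GSK arrays.

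SGK1, a serum- and glucocorticoid-inducible kinase that regulates epithelial sodium channels, had signals of 5983, 4584, 3696 and 4586 in Ind/GSK arrays, against 746, 1229, 563 and 1106 in vehicle arrays. Its rise of 2.39 ± 0.21 (5.26-fold, adjusted p = 1.43e-09) had the smallest SE of the 15 largest rises, and here replicate 3 was the lowest array of both groups. BDNF, a neurotrophin gene with well-described CREB sites, had 3314, 2232, 2201 and 2752 with Ind/GSK, against 928, 771, 364 and 743 with vehicle, a rise of 1.94 ± 0.31 (adjusted p = 0.000125). ITPRIP, whose product binds the inositol trisphosphate receptor, had 3030, 2312, 2817 and 2039 in Ind/GSK arrays, against 654, 614, 605 and 515 in vehicle arrays, and rose by 2.05 ± 0.22 (adjusted p = 5.94e-08). The zinc finger gene ZNF331 had 3970, 2592, 3687 and 2290 in Ind/GSK arrays, against 835, 879, 630 and 893 in vehicle arrays, and rose by 1.91 ± 0.26 (adjusted p = 9.05e-06). In these 4 genes each Ind/GSK array was at least 2 times as high as its matched vehicle array.

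**Figure D2:**
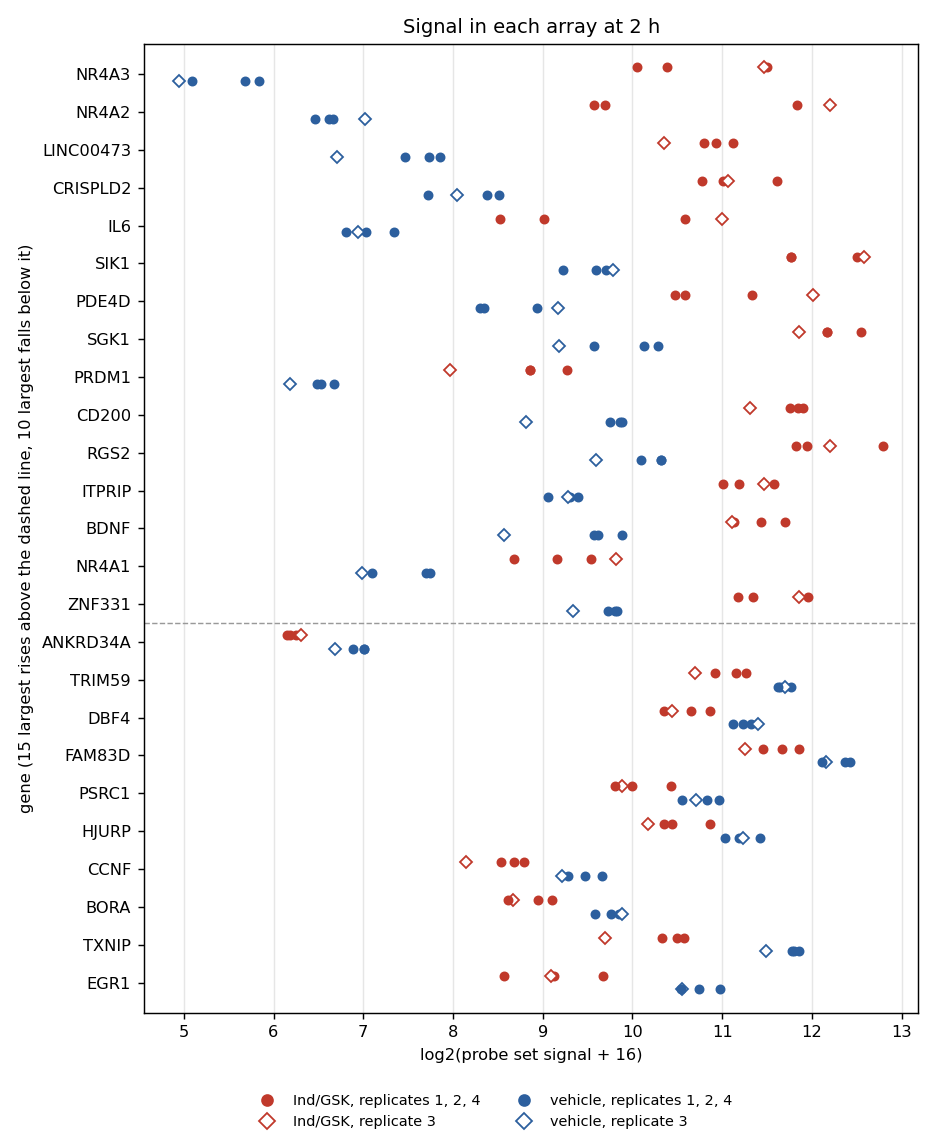
Log2(signal + 16) in each array (horizontal axis) for the 15 largest rises and the 10 largest falls, 1 row for each gene, with the 4 Ind/GSK arrays in red above the 4 vehicle arrays in blue and replicate 3 as open diamonds. The groups do not overlap in any row, which the choice of these genes required. For NR4A2 and IL6 the Ind/GSK points split into replicates 1 and 3 on the high side and replicates 2 and 4 on the low side.

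Promoter windows were examined because CREB acts through the cAMP response element. The windows are RefSeq sequence (GRCh38.p14) from 250 bases before to 50 bases after an annotated start, on the strand of the gene. They were searched on both strands for TGACGTCA, the full element, and for TGACG, the core of the element, which lies within every full element. The full element was in 3 of 79 windows (3.80%) of genes that rose at least 2-fold, 15 of 252 (5.95%) of all risen genes, 10 of 218 (4.59%) of fallen genes and 505 of 21490 (2.35%) of all genes tested. The core was in 32 of 79 (40.5%), 94 of 252 (37.3%), 65 of 218 (29.8%) and 6020 of 21490 (28.0%) of the same windows. Windows were found for 44 of the 55 genes risen at least 2-fold, and genes with several starts have several windows. By gene, in the same order, the full element was in 3 of 44 (6.82%), 14 of 138 (10.1%), 10 of 159 (6.29%) and 477 of 15384 (3.1%). The core was in 25 (56.8%), 73 (52.9%), 60 (37.7%) and 5343 (34.7%) of these genes. These are descriptions of short windows, with no test. The 3 windows with the full element among genes that rose at least 2-fold are shown first, with the element in capitals. CHMP1B encodes a subunit of the membrane-remodelling ESCRT machinery, MAFF a small leucine zipper transcription factor and AVPI1 a vasopressin-inducible protein. The element starts at position -46 from the annotated start in CHMP1B, -54 in MAFF and -242 in AVPI1.
CHMP1B, chr18:11851163-11851462, plus strand: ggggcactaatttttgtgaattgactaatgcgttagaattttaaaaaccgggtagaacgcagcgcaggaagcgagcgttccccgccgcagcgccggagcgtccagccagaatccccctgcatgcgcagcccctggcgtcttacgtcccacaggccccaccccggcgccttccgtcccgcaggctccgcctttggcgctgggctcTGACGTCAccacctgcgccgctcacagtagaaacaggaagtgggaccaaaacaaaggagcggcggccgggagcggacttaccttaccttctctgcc
MAFF, chr22:38201744-38202043, plus strand: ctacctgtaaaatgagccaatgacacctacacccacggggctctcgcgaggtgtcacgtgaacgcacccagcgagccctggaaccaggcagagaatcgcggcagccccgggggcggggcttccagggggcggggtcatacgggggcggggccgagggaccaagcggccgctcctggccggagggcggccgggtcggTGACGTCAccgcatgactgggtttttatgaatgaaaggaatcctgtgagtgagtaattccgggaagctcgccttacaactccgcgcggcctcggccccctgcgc
AVPI1, chr10:97687192-97687491, minus strand: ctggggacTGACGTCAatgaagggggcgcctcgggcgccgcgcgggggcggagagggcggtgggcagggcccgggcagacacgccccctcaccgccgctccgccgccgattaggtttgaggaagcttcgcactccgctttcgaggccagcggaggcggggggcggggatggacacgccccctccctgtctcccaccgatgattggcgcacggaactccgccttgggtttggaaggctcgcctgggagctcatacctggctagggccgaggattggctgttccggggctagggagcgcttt
For leading risen genes without the full element, matches to the core are shown in capitals, as CGTCA where they lie on the opposite strand: 4 in NR4A3, 2 in LINC00473, 2 in IL6 and 3 in SIK1. They are shown because these genes had the largest changes with a window that holds the motif. No window of the 15 largest rises held the full element. The windows of CRISPLD2, SGK1, ITPRIP and NR4A1 did not hold the core either, and NR4A2 had no window.
NR4A3, chr9:99821635-99821934, plus strand: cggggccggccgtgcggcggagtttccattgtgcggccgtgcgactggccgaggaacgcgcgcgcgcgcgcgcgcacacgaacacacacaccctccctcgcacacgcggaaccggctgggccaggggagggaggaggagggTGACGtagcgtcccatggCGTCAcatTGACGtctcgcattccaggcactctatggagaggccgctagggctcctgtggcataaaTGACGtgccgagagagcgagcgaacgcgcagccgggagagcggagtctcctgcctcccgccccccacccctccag
LINC00473, chr6:165987990-165988289, minus strand: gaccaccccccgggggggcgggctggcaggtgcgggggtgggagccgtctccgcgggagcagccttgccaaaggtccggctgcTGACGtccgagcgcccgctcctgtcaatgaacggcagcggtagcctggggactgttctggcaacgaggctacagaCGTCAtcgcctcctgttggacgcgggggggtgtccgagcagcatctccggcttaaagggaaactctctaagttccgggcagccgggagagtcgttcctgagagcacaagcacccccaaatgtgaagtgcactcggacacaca
IL6, chr7:22726950-22727249, plus strand: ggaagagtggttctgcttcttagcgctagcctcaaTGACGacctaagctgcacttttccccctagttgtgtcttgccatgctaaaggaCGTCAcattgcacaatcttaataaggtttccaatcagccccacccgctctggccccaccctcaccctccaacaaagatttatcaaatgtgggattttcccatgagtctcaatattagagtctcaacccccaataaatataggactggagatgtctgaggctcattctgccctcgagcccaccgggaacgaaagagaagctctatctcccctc
SIK1, chr21:43427082-43427381, minus strand: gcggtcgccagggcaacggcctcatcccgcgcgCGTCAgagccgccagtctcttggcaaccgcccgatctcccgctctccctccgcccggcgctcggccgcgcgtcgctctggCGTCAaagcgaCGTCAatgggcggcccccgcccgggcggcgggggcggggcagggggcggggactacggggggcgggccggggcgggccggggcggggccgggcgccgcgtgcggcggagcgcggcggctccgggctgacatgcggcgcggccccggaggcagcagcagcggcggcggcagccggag

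Upstream in the pathway, of 18 measured genes for receptor regulation, Gs and adenylyl cyclases, none was called by limma. At an unadjusted p under 0.05 there was 1 of the 18, against 4301 of all 41091 probe sets. The median change of the 18 was -0.01, against -0.05 over all genes. GNAS, which encodes the Gs alpha subunit, had signals of 13795, 13780, 14002 and 13215 in Ind/GSK arrays, against 14067, 14058, 13178 and 13609 in vehicle arrays, a change of -0.00 ± 0.04 (adjusted p = 0.999). GRK2 and ARRB1, a kinase and an arrestin that desensitise G protein-coupled receptors, had changes of -0.01 ± 0.09 and -0.22 ± 0.17, and the 2 groups overlapped in all 3 genes. With the replicate block 1 of the 18 was called risen. Of 18 protein kinase A subunit, inhibitor and anchor genes, none was called by its brightest probe set and 3 had an unadjusted p under 0.05, with a median of -0.02. PRKACA, the main catalytic subunit, had a change of -0.13 ± 0.07 (adjusted p = 0.586). AKAP12, a scaffold that anchors protein kinase A, had 5963, 5662, 4955 and 5156 with Ind/GSK, against 4058, 4539, 2870 and 3969 with vehicle, a change of 0.51 ± 0.15 (adjusted p = 0.079). Its 3 other probe sets, with changes of 0.85, 0.89 and 1.00, were called risen. With the block, and likewise without replicate 3, 1 of the 18 protein kinase A genes was called risen.

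Among 15 measured phosphodiesterase and cAMP export genes, PDE4D and PDE4B rose and none fell. PDE4D, a PDE4 subtype, had signals of 2553, 1522, 4106 and 1410 in Ind/GSK arrays, against 473, 309, 559 and 298 in vehicle arrays. It rose by 2.41 ± 0.44 (5.33-fold, adjusted p = 0.000795), and all 4 pairs differed in the same direction. Of its other probe sets, 3 had changes of 1.86, 1.98 and 2.31, while 2 more had -0.10 and 0.06. PDE4B had 627, 565, 861 and 558 with Ind/GSK, against 302, 389, 285 and 349 with vehicle, and rose by 0.93 ± 0.24 (adjusted p = 0.0284). Its call was kept in 3 of the 8 fits that each left out 1 array, and its other probe sets, at 0.74 and -0.05, were not called. PDE4A had a change of 0.07 ± 0.08 (adjusted p = 0.9). The other PDE genes measured, among them PDE3A, PDE7A, PDE7B and PDE8A, had changes of -0.24 to 0.38 and no call. PDE4C was not analysed here.

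In the list of CREB family, coactivator and salt-inducible kinase genes, 3 of 10 rose: SIK1, SIK2 and CREM. SIK2, a second member of the kinase family, had signals of 1432, 956, 1792 and 884 in Ind/GSK arrays, against 493, 486, 550 and 528 in vehicle arrays, and rose by 1.22 ± 0.20 (2.32-fold, adjusted p = 0.000202). CREM, which encodes activator and repressor isoforms including the inducible repressor ICER, had 612, 423, 651 and 448 with Ind/GSK, against 356, 411, 373 and 406 with vehicle. Its rise of 0.43 ± 0.11 (adjusted p = 0.0426) was kept in 2 of the 8 fits that left out 1 array, and its 5 other probe sets, at -0.03 to 0.56, were not called. Without replicate 3, 2 of the 10 rose. CREB1 had a change of -0.12 ± 0.13 (adjusted p = 0.887).

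Of 25 measured genes in the list of known cAMP-CREB targets, 13 rose and none fell, where 0.86% of all genes rose. Their median change was 0.93, against -0.05 over all genes. With only probe sets above a signal of 100.8 tested, 13 of 20 list members rose, against 188 of 13374 genes. The list was written with earlier results of these data known, so its count is not an independent test. Besides the genes above, RGS2, which shortens Gq signalling and is known to protect airway smooth muscle from contraction, had signals of 7091, 3918, 4684 and 3611 in Ind/GSK arrays, against 1261, 1260, 757 and 1082 in vehicle arrays. It rose by 2.11 ± 0.28 (adjusted p = 5.21e-06), the only call among 12 measured RGS genes, of which 1 more fell under the block. DUSP1, a phosphatase that switches off p38 and JNK kinases, had 12660, 11239, 11537 and 11428 with Ind/GSK, against 8508, 8716, 6230 and 7997 with vehicle, and rose by 0.59 ± 0.10 (adjusted p = 0.000272). FOS, a classical cAMP-responsive gene, had 186, 118, 484 and 77.9 in Ind/GSK arrays, against 87.2, 61.4, 87.5 and 34.3 in vehicle arrays, a change of 1.23 ± 0.59 that was not called (adjusted p = 0.458). It was higher in 4 of 4 pairs, but the groups overlapped. FOSB, with 116, 80.6, 82.1 and 63.8 in Ind/GSK arrays and 47.6, 47.5, 18.8 and 38.2 in vehicle arrays, had a change of 0.93 ± 0.26 that was not called (adjusted p = 0.0519). With the replicate block, 20 of the 25 were called risen.

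The list of anti-inflammatory and bronchoprotective effectors had 16 measured genes, of which 7 rose and none fell, with a median change of 0.80 (11 rose with the replicate block). PRDM1, a transcriptional repressor of immune genes, had signals of 603, 447, 235 and 448 in Ind/GSK arrays, against 86.1, 73.8, 56.5 and 76.7 in vehicle arrays, and rose by 2.27 ± 0.26 (adjusted p = 2.84e-07). CD200, a surface glycoprotein that restrains myeloid cells through its receptor, had 3661, 3434, 2524 and 3818 with Ind/GSK, against 843, 931, 435 and 915 with vehicle, and rose by 2.12 ± 0.30 (adjusted p = 1.24e-05). In both genes replicate 3 was the lowest array of each group, and all 4 pairs rose. TRIB1, a pseudokinase, rose by 1.57 ± 0.17 (adjusted p = 1.11e-07), CD55, a complement inhibitor, by 1.09 ± 0.22 (adjusted p = 0.0032) and THBD, the thrombin receptor thrombomodulin, by 1.02 ± 0.22 (adjusted p = 0.00672). CDKN1C, the cell cycle inhibitor p57, had signals of 3139, 720, 4911 and 824 with Ind/GSK, against 674, 400, 953 and 455 with vehicle. Its change of 1.55 ± 0.65 was not called (adjusted p = 0.346), and it was higher in 4 of 4 pairs with groups that overlapped.

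Among 16 measured glucocorticoid-inducible genes 4 rose and none fell: CRISPLD2, SGK1, DUSP1 and CEBPD, a C/EBP transcription factor with a rise of 0.67 ± 0.18 (adjusted p = 0.0438). No glucocorticoid treatment is given in the labels of these arrays. PDK4, a mitochondrial kinase that limits pyruvate oxidation, had 4455, 511, 8001 and 528 in Ind/GSK arrays, against 488, 45.8, 1087 and 44.9 in vehicle arrays. Its change of 3.07 ± 1.41 was not called (adjusted p = 0.424). Every Ind/GSK array exceeded its matched vehicle array, by a similar amount of log2(signal + 16) in each pair. Replicates 1 and 3 were far above replicates 2 and 4 in both groups. The main fit had no replicate term, so this spread entered the SE. PDK4 was not followed gene by gene under the block. With the replicate block 9 of the 16 rose.

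Of 20 measured inflammatory cytokine, chemokine and adhesion genes 4 rose and none fell: IL6, CXCL2, CCL20 and IL15, with a median change of 0.10 over the list. Without Ind/GSK replicate 3 only 2 of the 20 rose. CCL20 lost its call in that fit, and CXCL2 kept its call in 4 of the 8 fits that left out 1 array. CXCL2, a neutrophil-attracting chemokine, had signals of 470, 188, 566 and 138 with Ind/GSK, against 78.6, 65.9, 120 and 64.5 with vehicle, and rose by 1.68 ± 0.40 (adjusted p = 0.019). CCL20, which attracts CCR6-bearing cells, had 81.4, 62.4, 129 and 51.6 in Ind/GSK arrays, against 11.6, 7.74, 17.0 and 19.2 in vehicle arrays, and rose by 1.66 ± 0.36 (adjusted p = 0.00586). Its vehicle signals lay below 20, and the change was 2.45 with a pseudocount of 1 and 0.87 with 64. IL15, a cytokine for natural killer and memory T cells, rose by 0.83 ± 0.15 (adjusted p = 0.000785). CCL2, a monocyte-attracting chemokine, had 1196, 1165, 895 and 747 with Ind/GSK, against 569, 612, 343 and 452 with vehicle, a change of 1.00 ± 0.33 that was not called (adjusted p = 0.138). Of 12 NF-κB pathway genes, REL, a subunit, rose by 0.84 ± 0.14 (adjusted p = 0.000123) and NFKBIZ, an atypical inhibitor protein that can coactivate IL6, by 0.55 ± 0.12 (adjusted p = 0.00666), and 1 of the 12 was called without replicate 3. With the block 3 of the 12 rose and 1 fell. None of 20 interferon-stimulated genes was called, or had an unadjusted p under 0.05, a level that 4301 of all 41091 probe sets reached.

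**Figure D3:**
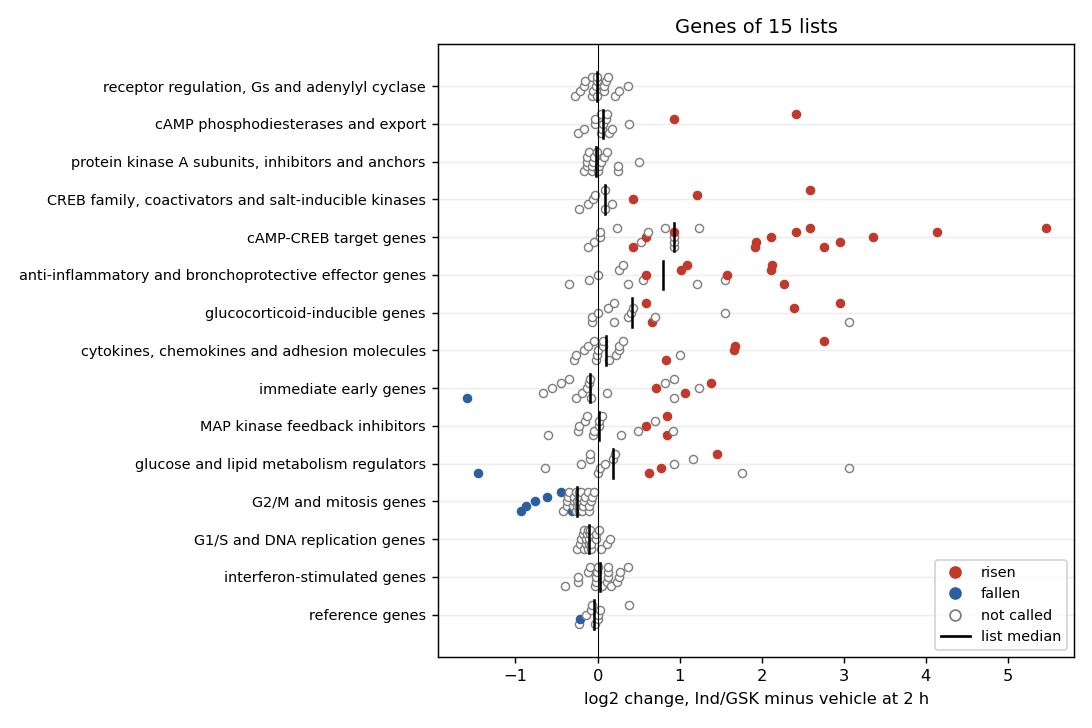
Change at 2 h (Ind/GSK minus vehicle, log2(signal + 16), horizontal axis) of every measured member of selected gene lists, 1 row for each list and 1 point for each gene by its brightest probe set. Filled points were called, and a bar marks the list's median. The cAMP-CREB targets have a median of 0.93 with 13 of 25 called risen, and the G2/M and mitosis genes a median of -0.24 with 6 of 35 called fallen.

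Immediate early genes split in direction. Of 19 measured, MAFF rose by 1.38 ± 0.26 (adjusted p = 0.000948), FOSL2, an AP-1 subunit, by 1.06 ± 0.12 (adjusted p = 2.41e-07) and MYC by 0.71 ± 0.14 (adjusted p = 0.0028), while EGR1 fell. EGR1, the serum- and ERK-responsive zinc finger factor, had signals of 802, 542, 532 and 363 in Ind/GSK arrays, against 2000, 1698, 1487 and 1472 in vehicle arrays. It fell by 1.59 ± 0.19 (adjusted p = 8.82e-07) to 0.333 of the vehicle level, the largest fall of any gene by its brightest probe set, and its highest Ind/GSK array was well below its lowest vehicle array. Its other probe sets had changes of -1.72 and -0.71. The AP-1 genes FOSL1 and JUN had changes of -0.66 ± 0.36 (adjusted p = 0.548) and -0.55 ± 0.25 (adjusted p = 0.413), and both were lower in 4 of 4 pairs without a call. With the replicate block 7 of the 19 rose and 4 fell, and without replicate 3, 3 rose and 3 fell.

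Among 17 inhibitors of MAP kinase signalling, 3 rose: SPRY2, a Sprouty protein, by 0.84 ± 0.22 (adjusted p = 0.0377), DUSP4 by 0.84 ± 0.12 (adjusted p = 2.46e-05) and DUSP1. DUSP6, an ERK-selective phosphatase, had a change of -0.60 ± 0.33 that was not called (adjusted p = 0.545). The block raised the count to 6, 1 gene fell without replicate 3, and SPRY2 kept its call in 2 of the 8 fits that left out 1 array. In the list of Krüppel-like and C/EBP factors, CEBPD, KLF6 and CEBPB rose, KLF6 by 0.48 ± 0.11 (adjusted p = 0.00786) and CEBPB by 0.44 ± 0.12 (adjusted p = 0.0406), and KLF7 fell by 0.61 ± 0.16 (adjusted p = 0.0341), of 18 measured. With the block 7 rose and 1 fell, and without replicate 3, 4 rose and none fell. None of the 18 was called without Ind/GSK replicate 1. Of the 8 fits that left out 1 array, CEBPD was called in 2, KLF6 in 7, and CEBPB and KLF7 in 1 each.

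Genes of G2 phase and mitosis were lower with Ind/GSK. This list too was written with earlier results of these data known, so its counts are not an independent test. All 35 measured members had a change below 0, against 13070 of all 19775 genes, with a median of -0.24 against -0.05. In 30 genes all 4 pairs were lower, a pattern found in 18.7% of all genes, and 6 were called fallen, where 0.951% of all genes fell. All 35 had a mean signal above 100.8, which many of all genes did not. With only probe sets above that level tested, 8 of the 35 fell, against 286 of 13374 genes. BORA, which helps Aurora A activate the mitotic kinase PLK1, had signals of 535, 479, 390 and 375 in Ind/GSK arrays, against 904, 854, 928 and 749 in vehicle arrays, and fell by 0.94 ± 0.12 (adjusted p = 4.32e-06). CCNF, the F-box cyclin, had 428, 395, 267 and 355 with Ind/GSK, against 607, 795, 578 and 696 with vehicle, and fell by 0.87 ± 0.15 (adjusted p = 0.000544). HJURP, the chaperone that loads the centromeric histone CENPA, had 1854, 1376, 1141 and 1291 in Ind/GSK arrays, against 2732, 2310, 2389 and 2070 in vehicle arrays, and fell by 0.76 ± 0.13 (adjusted p = 0.000449). The groups of these 3 genes did not overlap, and each fall was under 2-fold.

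AURKA, encoding Aurora A, had signals of 5269, 3686, 3523 and 3560 in Ind/GSK arrays, against 7003, 6303, 5544 and 5487 in vehicle arrays, and fell by 0.61 ± 0.15 (adjusted p = 0.0166), a call kept in 3 of the 8 fits that left out 1 array. CENPA fell by 0.44 ± 0.12 (adjusted p = 0.0491) and the checkpoint kinase gene BUB1B by 0.31 ± 0.08 (adjusted p = 0.024). Neither call was followed gene by gene through the fits that left out 1 array. PLK1 itself had a change of -0.36 ± 0.15 (adjusted p = 0.344) and CCNB1, the mitotic cyclin B1, -0.35 ± 0.11 (adjusted p = 0.107), neither called. The count of 6 became 14 with the block, 5 under either rescaling of the arrays, 3 without replicate 3, 1 with only the 8 arrays in the fit, and 3 to 7 where 1 array was left out. The count was 3 without Ind/GSK replicate 2, 3 or 4 or vehicle replicate 1 or 2. Of 23 measured genes in the list of the G1/S transition and DNA replication, none was called, with a median of -0.11, and 1 fell under the block. Of the 23, 2 had an unadjusted p under 0.05, against 4301 of all 41091 probe sets by limma. That list did not hold DBF4, a replication gene that fell and is given below. In RNA from whole cultures, fewer mitotic cells and less RNA of the mitosis genes per cell cannot be told apart.

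The 10 largest falls also held PSRC1, FAM83D and DBF4. PSRC1, a spindle protein gene, had signals of 1368, 1001, 930 and 882 in Ind/GSK arrays, against 1990, 1810, 1663 and 1483 in vehicle arrays, and fell by 0.74 ± 0.14 (adjusted p = 0.00172). FAM83D, which recruits kinase to the spindle, had 3692, 3233, 2421 and 2785 with Ind/GSK, against 5497, 5277, 4550 and 4423 with vehicle, and fell by 0.71 ± 0.12 (adjusted p = 0.000196). DBF4, the regulatory subunit of the replication kinase CDC7, had 1847, 1289, 1373 and 1592 in Ind/GSK arrays, against 2550, 2394, 2694 and 2213 in vehicle arrays, and fell by 0.70 ± 0.11 (adjusted p = 4.92e-05). In all 3 the lowest vehicle array was above the highest Ind/GSK array. The remaining falls among the 10 were TRIM59, a tripartite motif gene, by 0.68 ± 0.12 (adjusted p = 0.000791), and ANKRD34A, an ankyrin repeat gene whose Ind/GSK signals lay below 63, by 0.67 ± 0.10 (adjusted p = 7.16e-05). Of 13 measured inhibitors of the cell cycle and proliferation, TOB1 rose by 0.67 ± 0.09 (adjusted p = 4.61e-06) and BTG1 by 0.48 ± 0.11 (adjusted p = 0.0168), with 4 risen under the block. BTG1 lost its call without Ind/GSK replicate 3, vehicle replicate 2 or vehicle replicate 4.

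Of 17 regulators of glucose and lipid metabolism, 3 rose and 1 fell. TXNIP, an arrestin-family protein that limits glucose uptake, had signals of 1508, 1432, 809 and 1269 in Ind/GSK arrays, against 3490, 3700, 2856 and 3550 in vehicle arrays. It fell by 1.46 ± 0.22 (adjusted p = 3.6e-05) to 0.364 of the vehicle level, and both other probe sets fell by 1.54. SLC2A3, encoding the glucose transporter GLUT3, had 2343, 1895, 1557 and 1504 with Ind/GSK, against 731, 872, 408 and 660 with vehicle, and rose by 1.46 ± 0.29 (adjusted p = 0.00224). IRS2, an insulin receptor substrate and CREB target in liver, rose by 0.77 ± 0.10 (adjusted p = 1.01e-06), and PFKFB3, an activator of glycolysis, by 0.62 ± 0.16 (adjusted p = 0.0294). Of 11 amino acid transporter genes 2 rose. SLC7A2, which carries arginine, had 2059, 1798, 2074 and 1877 in Ind/GSK arrays, against 758, 661, 597 and 789 in vehicle arrays, and rose by 1.46 ± 0.18 (adjusted p = 6.17e-07). With the block the counts were 7 risen and 2 fallen for the glucose list and 5 risen for the transporters, of which 4 rose without replicate 3. Without Ind/GSK replicate 3 or vehicle replicate 1, 1 transporter rose, and PFKFB3 was called in 3 of the 8 fits that left out 1 array.

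Other lists held few calls. CCN2, encoding connective tissue growth factor, rose by 1.25 ± 0.27 (adjusted p = 0.00666) as the 1 call among 16 YAP and SRF targets. DKK1, a secreted Wnt inhibitor, rose by 0.83 ± 0.20 (adjusted p = 0.0203) among 20 Wnt and Notch pathway genes. PLAUR, the urokinase receptor, rose by 0.53 ± 0.12 (adjusted p = 0.00861) beside THBD among 10 coagulation genes, and both calls were lost without Ind/GSK replicate 3. HERPUD1 rose by 0.48 ± 0.10 (adjusted p = 0.00415) among 15 unfolded protein response genes, and the clock-associated CIART fell by 0.61 ± 0.15 (adjusted p = 0.0269) among 15 clock genes. Of the 8 fits that left out 1 array, DKK1 was called in 5 and CIART in 3. Both also lost their call without replicate 3 in any group. No listed member was called among 18 airway ion transport and mucin genes, 17 extracellular matrix genes and 13 BCL2 family genes. The same held for 10 NRF2 targets, 9 sterol genes and 9 EGF receptor and ligand genes. Uncalled changes ran from -1.19 to 1.24 in the BCL2 family and from -0.30 to 0.94 in the extracellular matrix list. They ran from -0.37 to 0.77 among NRF2 targets and from -0.28 to 0.63 among EGF receptor and ligand genes. With only probe sets above a signal of 100.8 tested, 1 BCL2 family gene rose and 1 fell. The BCL2 family list did not hold HRK, a BH3-only gene that rose and is given under Other observations. At an unadjusted p under 0.05 there were 4 BCL2 family genes, 3 NRF2 targets, 1 extracellular matrix gene and none in the other 3 lists. Over all 41091 probe sets, 4301 reached that level by limma. With the block, 5 Wnt and Notch genes rose and 1 fell, 3 extracellular matrix genes rose, and 2 rose and 2 fell in each of the BCL2 family, YAP and SRF target and clock lists. The block also called 1 NRF2 target risen and 2 fallen, 1 EGF receptor or ligand gene risen, and 2 unfolded protein response genes risen and 1 fallen. Without replicate 3 in any group, 2 YAP and SRF targets, 2 Wnt and Notch genes, 1 clock gene, 1 extracellular matrix gene and 1 NRF2 target rose, 1 BCL2 family gene fell, and no clock gene fell. Of 7 heat shock genes DNAJB1 fell by 0.30 ± 0.06 (adjusted p = 0.00494), and of 10 reference genes YWHAZ fell by 0.21 ± 0.06 (adjusted p = 0.0389). YWHAZ and PTGES3, which fell by 0.18 ± 0.05 (adjusted p = 0.0227) among 13 prostaglandin genes, lost their calls under both rescalings of the arrays, without replicate 3 in any group and with only the 8 arrays in the fit. YWHAZ was called in none of the 8 fits that left out 1 array, and PTGES3 in 4. With the block over all arrays 1 reference gene rose and 2 fell, and 1 prostaglandin gene rose and 1 fell.

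Probe sets of the same gene were compared. In 96 risen genes with another probe set above a signal of 100.8, 112 of 167 such probe sets were also called risen, 158 had the same sign and 24 changed by less than 0.2. In 82 fallen genes, 36 of 148 were called fallen, 131 had the same sign and 76 changed by less than 0.2. None of these other probe sets was called in the opposite direction. For comparison, 361 of all 41091 probe sets were called risen and 279 fallen. By the brightest probe set, 6705 of all 19775 genes had a change above 0 and 13070 below 0. CPEB4, which encodes a protein that binds cytoplasmic polyadenylation elements, had signals of 4118, 2189, 4038 and 2656 in Ind/GSK arrays, against 1132, 830, 1036 and 775 in vehicle arrays, and rose by 1.73 ± 0.24 (adjusted p = 7.71e-06). Of its other probe sets, 2 rose by 1.82 and 1.64 and 1 had a change of -0.20.

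**Figure D4:**
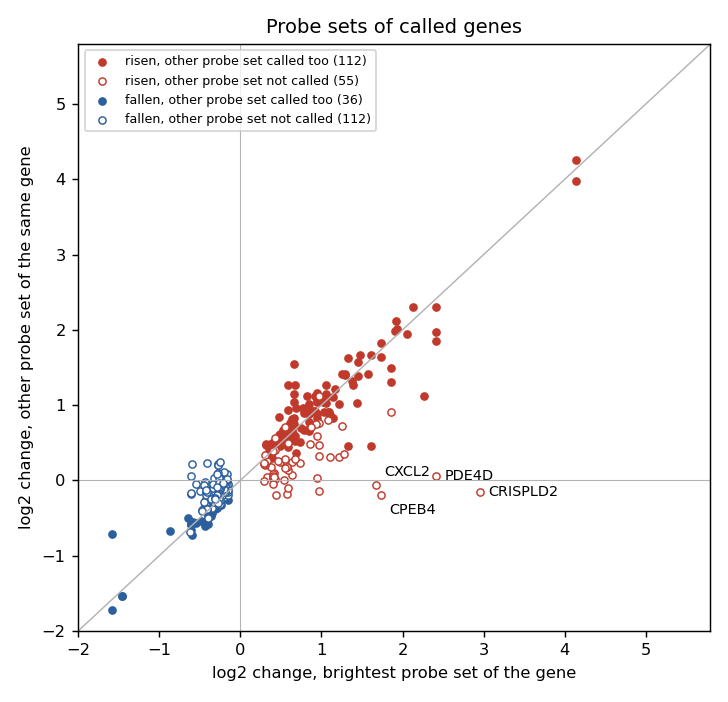
Change at 2 h (Ind/GSK minus vehicle, log2(signal + 16)) of the other probe sets above a signal of 100.8 (vertical axis) against the brightest probe set of the same called gene (horizontal axis), red for risen and blue for fallen genes, filled where the other probe set was called too. Of the risen pairs 112 are filled and 55 open, of the fallen pairs 36 are filled and 112 open. Single probe sets of CRISPLD2, PDE4D, CPEB4 and CXCL2 lie near 0.

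The response at 2 h was then set against that at 1 h and at 6 h, which rest on other arrays. At 1 h 64 genes rose (0.324%) and 104 fell (0.526%), at 6 h 124 rose (0.627%) and 239 fell (1.21%), and at 18 h 3 rose (0.0152%) and 3 fell (0.0152%). Of the 170 genes risen at 2 h, 32 were also called risen at 1 h, 49 at 6 h and none at 18 h. Their median changes were 0.18 at 1 h, 0.77 at 2 h, 0.36 at 6 h and 0.03 at 18 h, and since they were chosen at 2 h the 2 h median is high by construction. Of the 188 genes fallen at 2 h, 35 were called fallen at 1 h, 19 at 6 h and none at 18 h. Among the 15 largest rises, 11 were called at 1 h, 10 at 6 h and none at 18 h. Of the 10 largest falls none was called at 1 h, 2 at 6 h and none at 18 h.

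The difference between the 2 h and 1 h responses was called for 28 probe sets (0.0681%), 26 of them higher at 2 h. CRISPLD2 changed by 0.25 at 1 h, 2.95 at 2 h, 3.04 at 6 h and 0.81 at 18 h, and its 2 h response exceeded that at 1 h by 2.70 ± 0.55 (adjusted p = 0.0353). SLC7A2 changed by -0.00 at 1 h, 1.46 at 2 h and 1.99 at 6 h, a difference of 1.46 ± 0.25 (adjusted p = 0.00731). Both genes were at or near the vehicle level at 1 h. FIGN, which encodes the microtubule-severing ATPase fidgetin, had signals of 632, 616, 573 and 599 in Ind/GSK arrays at 2 h, against 336, 396, 387 and 380 in vehicle arrays. It changed by -0.30 at 1 h, 0.67 at 2 h and -0.02 at 6 h, and the 2 h response was higher than the 1 h response by 0.97 ± 0.15 (adjusted p = 0.00267). CEMIP2, a transmembrane protein gene related to the hyaluronan-degrading CEMIP, had 2430, 2332, 2376 and 2217 with Ind/GSK at 2 h, against 1176, 1231, 990 and 1138 with vehicle, and its difference from 1 h was 1.00 ± 0.19 (adjusted p = 0.0151). ZNF462, a zinc finger gene, had a difference of 1.27 ± 0.26 (adjusted p = 0.0353). The 2 probe sets lower at 2 h included OR51B4, an olfactory receptor gene with signals under 60 in the 2 h vehicle arrays, at -0.50 ± 0.11 (adjusted p = 0.0482). Centring each array on its 75th percentile gave 10 calls, and it moved the median difference over all probe sets to -0.07, against 0.04 with arrays as deposited. The replicate block gave 545 calls and the fit without replicate 3 gave 74.

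The 2 h and 6 h responses differed in 19 probe sets (0.0462%), 14 higher and 5 lower at 2 h. SGK1 changed by 2.12 at 1 h, 2.39 at 2 h, 0.84 at 6 h and 0.09 at 18 h, and its 2 h response exceeded that at 6 h by 1.56 ± 0.30 (adjusted p = 0.036). LRRC75A had signals of 640, 511, 800 and 447 in Ind/GSK arrays at 2 h, against 276, 308, 354 and 290 in vehicle arrays, and a response larger at 2 h than at 6 h by 1.22 ± 0.24 (adjusted p = 0.036). TBX3, a T-box repressor of cell cycle inhibitor genes, had 509, 388, 457 and 421 with Ind/GSK at 2 h, against 159, 180, 193 and 139 with vehicle. It rose by 1.32 ± 0.13 (adjusted p = 1.32e-08) at 2 h, against 0.42 at 1 h and 0.44 at 6 h, a difference from 6 h of 0.89 ± 0.18 (adjusted p = 0.0464). AGFG2 and MAML2, the second a coactivator of Notch signalling, had differences of 0.66 ± 0.14 (adjusted p = 0.0464) and 0.61 ± 0.12 (adjusted p = 0.0393), and MAML2 was not called at 2 h on its own.

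The probe sets with a lower response at 2 h than at 6 h had little change or a fall at 2 h. CSGALNACT1, which starts chondroitin sulphate chains, had 174, 101, 121 and 160 in Ind/GSK arrays at 2 h, against 149, 150, 181 and 94.8 in vehicle arrays. Its change was -0.04 at 2 h and 2.88 at 6 h, a difference of -2.92 ± 0.31 (adjusted p = 7.37e-07). PDE7B, a cAMP-specific phosphodiesterase outside the PDE4 family, had 137, 134, 105 and 138 with Ind/GSK at 2 h, against 144, 136, 90.3 and 164 with vehicle, changes of -0.03 at 2 h, 2.08 at 6 h and 0.85 at 18 h, and a difference of -2.11 ± 0.29 (adjusted p = 0.000242). EPHA5, an ephrin receptor gene with a change of -0.03 at 2 h and 1.23 at 6 h, had a difference of -1.26 ± 0.22 (adjusted p = 0.0127). PCF11, a component of the transcript cleavage machinery, fell at 2 h, with changes of -0.55 at 2 h and 0.31 at 6 h, a difference of -0.86 ± 0.18 (adjusted p = 0.0464). The block gave 584 calls for the 2 h minus 6 h difference, the fit without replicate 3 gave 46 and the fit without Ind/GSK replicate 1 gave 4.

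**Figure D5:**
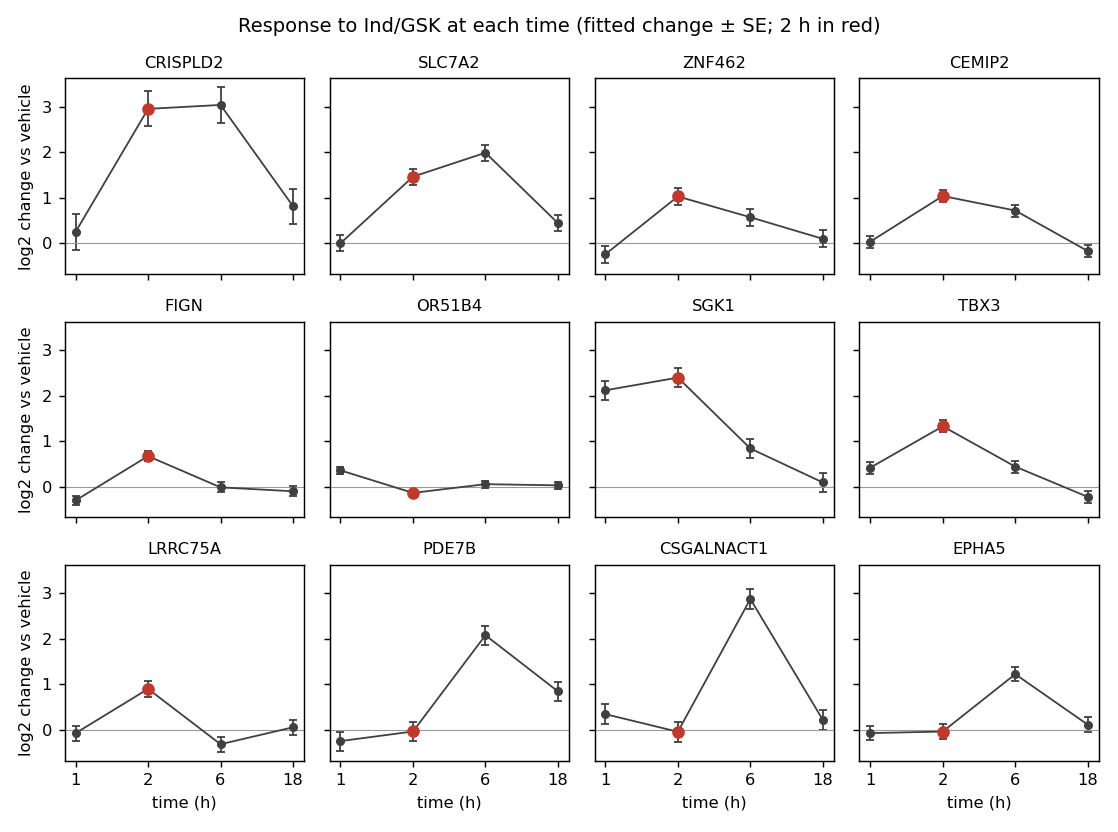
Change (Ind/GSK minus vehicle at the same time, log2(signal + 16), with SE bars, n = 4 arrays in each group, 2 h in red) at 1, 2, 6 and 18 h for 12 genes whose responses differed between times, 1 panel for each gene. SGK1 is already at 2.12 at 1 h and stands at 0.84 at 6 h, CRISPLD2 is at 2.95 at 2 h and 3.04 at 6 h, and CSGALNACT1 departs from 0 at 6 h.

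GS-5759 at the same dose and time was compared with Ind/GSK directly, as 1 pair of treatments. GS-5759 is 1 bifunctional molecule and Ind/GSK is a mixture of separate compounds, so the matched dose of 10 nM applies to each compound. Both responses are set against the same 4 vehicle arrays, and their changes are given side by side without a correlation. NR4A3 changed by 5.46 with Ind/GSK and 5.53 with GS-5759. LINC00473 changed by 3.36 with Ind/GSK and 3.47 with GS-5759, and SGK1 by 2.39 with Ind/GSK and 2.50 with GS-5759. These rises are close in size beside their SEs. EGR1 changed by -1.59 with Ind/GSK and -1.41 with GS-5759, and TXNIP by -1.46 with Ind/GSK and -1.48 with GS-5759. All 15 largest rises and 10 largest falls were also called with GS-5759, with which 215 of all 19775 genes rose and 88 fell. These genes were chosen for their distance from the same 4 vehicle arrays, so part of this overlap is built in.

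No probe set was called for Ind/GSK minus GS-5759 by limma (0% of those tested), under any alternative tried, and 1079 had an unadjusted p under 0.05. The difference was -0.08 for NR4A3 (95% interval -1.22 to 1.07), -0.11 for SGK1 (-0.54 to 0.32), -0.07 for ITPRIP (-0.51 to 0.36) and -0.17 for EGR1 (-0.57 to 0.22). Over the 15 largest rises the differences lay between -0.16 and 0.01, and their intervals between -1.57 and 1.36. Over the 10 largest falls the differences lay between -0.17 and 0.06, and the intervals between -0.57 and 0.47. The widest of these intervals allow differences of over 1 log2 unit in either direction, and the absence of calls does not show that the treatments act alike.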

How the data were processed

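BEAS-2B RNA had been hybridised to Affymetrix U133 Plus 2.0 arrays, 1 array for each of 48 samples in 12 groups of 4. Per the submitters' processing notes, the deposited intensities of probe sets had been made by the authors with the PLIER algorithm of Affymetrix Expression Console. Versions and the normalization between arrays are not given in the sources used here. The linear scale was read from the values, none of which was 0. Arrays carry no read depth, and their number limits the precision.

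The platform annotation of GEO gives exactly 1 gene symbol for 41091 of the 54675 probe sets, several for 1801 and none for 11721, besides 62 controls, and 41037 of the single symbols could be matched to current ones. These 41091 were tested without a filter on low values. A limma 3.58.1 model (R 4.3.3) of log2(signal + 16) had 1 mean for each of the 12 groups and took its spread from all 48 arrays, with 36 residual and 3.06 prior degrees of freedom and no eBayes trend. Benjamini-Hochberg adjustment was made separately in each contrast. Intervals are at 95%. Input was read with jsonlite 2.0.0 and data.table (version 1.17.8), and figures and summaries made with Python 3.11.15, pandas 2.3.3 and matplotlib 3.10.9. The fit was tested on simulated data with known changes.

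Named genes were, among called genes without overlap of the groups, the 15 with the largest rise and the 10 with the largest fall. They also were up to 4 called members of each gene list, the 5 largest in each direction of each further contrast, the pathway lists whatever their change, 6 called genes with a discordant probe set, and cell type markers. Genes outside this rule were chosen after their values were seen. They include the uncalled list members named in the report, apart from those of the pathway lists. Called list members beyond the 4 of a list, among them CENPA and BUB1B, also lie outside it. CHMP1B and AVPI1 were taken for their promoter windows. The genes compared and the lists were chosen with earlier results of these data known.

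Same-numbered Ind/GSK and vehicle arrays at 2 h were checked for pairing. Over probe sets their deviations from the group means correlated at 0.25, 0.46, 0.80 and 0.44, all above the minimum of 0.1. Different numbers gave -0.65 to 0.52. Ind/GSK replicate 2 correlated at 0.50 with vehicle replicate 4, and Ind/GSK replicate 4 at 0.52 with vehicle replicate 2, each above its own number. These values cannot tell replicates 2 and 4 apart, so their pairing rests on the titles alone. The numbers in the titles were taken to pair the samples in the counts of pairs and in the replicate block. The main fit had no replicate term. Alternatives were pseudocounts of 1 and 64, a filter at the 40th percentile of mean signal (a signal of 100.8), 75th percentile centring, quantile normalization, 1 probe set for each gene, only the arrays of the groups compared, a trend in eBayes, the replicate block and leaving out each array. Leaving out replicate 3 in all groups was added after seeing the data.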

Additional observations from a re-analysis of the deposited data

Results flagged for a closer look

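In groups of 4 arrays, a highest or lowest array was marked where its gap to the nearest other array was large beside the group's range, above Dixon's 95% critical value. Of 152 groups of named genes, 5 were marked (3.29%), where chance at that level gives about 5%. CD200 in vehicle replicate 3 had a signal of 435.2, below the other 3 vehicle arrays at 843 to 931. PDE7B in Ind/GSK replicate 3 had 104.8, below 134 to 138 in the others. AURKA in Ind/GSK replicate 1 had 5269, above 3523 to 3686 in the others, CIART in Ind/GSK replicate 4 had 242.6, above 154 to 166, and OR51B4 in vehicle replicate 1 had 59.1, above 47.5 to 48.3. Replicate 3 held 2 of the 5.

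The response to Ind/GSK differed between times by limma's test of the difference. Between 2 h and 1 h the differences were 2.70 for CRISPLD2, 1.46 for SLC7A2, 1.27 for ZNF462, 1.00 for CEMIP2, 0.97 for FIGN and -0.50 for OR51B4. Between 2 h and 6 h they were 1.56 for SGK1, 1.22 for LRRC75A, 0.89 for TBX3, 0.66 for AGFG2, 0.61 for MAML2, -0.86 for PCF11, -1.26 for EPHA5, -2.11 for PDE7B and -2.92 for CSGALNACT1.

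Probe sets with no gene symbol or several lay outside the report's comparisons. Of 13522 such probe sets, 30 rose and 20 fell with Ind/GSK at 2 h by the same limma model fitted to them alone, with p-values adjusted over them.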

How the results depend on the processing

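The 640 calls at 2 h stayed within 1.5 times under both pseudocounts, the filter, both rescalings, 1 probe set for each gene and the eBayes trend. The share of rises was 56.4% as deposited, 63.7% with 75th percentile centring and 63.6% with quantile normalization. It was 51.8% with a pseudocount of 64, 51.4% with the trend, 48.5% with the filter, 44.6% with the block and 38.2% with 1 probe set for each gene (200 risen and 324 fallen), so that falls outnumbered rises in the last 3. The last share counts genes above the filter, and by gene the main fit also had more falls (170 risen and 188 fallen). The share of rises was 87% with only the 8 arrays and 85.1% with the block on them. The replicate block gave 2316 calls over all 48 arrays and 388 over the 8 arrays, and the 8 arrays without it gave 108. Leaving out 1 array gave 354 to 645, with 354 without Ind/GSK replicate 3, and the fit without replicate 3 in any group gave 550 (418 risen and 132 fallen). Of 68 called genes named and refitted, 48 kept their call in every fit that left out 1 array and 33 in every other setting in which they were tested. With only the 8 arrays 35 lost it, with the block on those arrays 20, and with the block over all 48 arrays none. No called change reversed its sign in any setting. For the 2 h minus 1 h difference (28 calls), the filter gave 45, 75th percentile centring 10, the arrays of the 4 groups alone 9, the block 545 or 141 with those arrays, and the fit without replicate 3 gave 74. Leaving out 1 array gave 8 to 47, with 8 without Ind/GSK replicate 3 or vehicle replicate 1, 16 without Ind/GSK replicate 1 or vehicle replicate 2, and 47 without Ind/GSK replicate 4. For the 2 h minus 6 h difference (19 calls), pseudocounts of 1 and 64 gave 12 and 30, the rescalings 39 and 38, the arrays of the 4 groups alone 2, the block 584 or 173 with those arrays, and the fit without replicate 3 gave 46. Leaving out 1 array gave 4 to 18, with 4 without Ind/GSK or vehicle replicate 1, 8 to 10 without Ind/GSK replicate 3 or 4 or vehicle replicate 3 or 4. Ind/GSK minus GS-5759 had 0 calls in every setting run. The causes of these differences were not tested. Dim genes have changes that depend on the pseudocount, and 4 arrays in each group limit what falls under 2-fold can be called.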

Other observations

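Further genes outside the gene lists were called at 2 h and are given here as values, chosen after their values were seen. EDN1, the gene of the vasoconstrictor peptide endothelin-1, had signals of 3471, 2701, 2861 and 2886 in Ind/GSK arrays, against 1078, 1133, 661 and 1059 in vehicle arrays, and rose by 1.61 ± 0.17 (limma, adjusted p = 7.1e-08). C5AR1, a receptor for the complement fragment C5a, had 320, 232, 279 and 187 with Ind/GSK, against 57.8, 57.8, 69.1 and 57.6 with vehicle, and rose by 1.80 ± 0.31 (adjusted p = 0.000357). Both genes were higher in every Ind/GSK array than in any vehicle array. HRK, a BH3-only activator of apoptosis, rose by 1.86 ± 0.42 (adjusted p = 0.00965) and CASP9, the initiator caspase of the mitochondrial pathway, by 1.38 ± 0.23 (adjusted p = 0.000196). MAP3K8, a kinase upstream of ERK, rose by 1.43 ± 0.15 (adjusted p = 8.18e-08), CHMP1B by 1.47 ± 0.26 (adjusted p = 0.000504) and NOG, the BMP antagonist noggin, by 1.00 ± 0.22 (adjusted p = 0.00818). BCL6, a transcriptional repressor, rose by 0.97 ± 0.26 (adjusted p = 0.0419), and CD274, encoding the checkpoint ligand PD-L1, by 0.91 ± 0.23 (adjusted p = 0.0249).

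Among the fallen genes outside the lists, CDCA8, a subunit of the chromosomal passenger complex, had signals of 1698, 1502, 1168 and 1291 in Ind/GSK arrays, against 2387, 2362, 2208 and 1868 in vehicle arrays, and fell by 0.64 ± 0.12 (adjusted p = 0.000643). WEE1, a kinase that holds cells before mitosis, fell by 0.45 ± 0.10 (adjusted p = 0.0127), and NDC80, a kinetochore component, by 0.42 ± 0.12 (adjusted p = 0.0491). PDGFB, a growth factor gene, fell by 0.62 ± 0.16 (adjusted p = 0.0357). Symbols that begin with ZNF, zinc finger genes, were 17 of the 188 fallen and 2 of the 170 risen genes, and 502 of the 19775 tested.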
